A study of Mus musculus with 2 samples.

Results

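Granulocyte progenitors rich in primary granule transcripts are barcodes of mouse bone marrow chosen by 4 primary granule genes, Elane, Mpo, Prtn3 and Ctsg, which had to make up at least 1% of the unique molecular identifiers (UMIs, each standing for 1 captured transcript) of a barcode. A barcode also had to hold 1000 or more UMIs, under 10% UMIs of mitochondrial genes, at most 1 UMI of the monocyte genes Csf1r, F13a1 and Ms4a6c together, and at most 1 of the basophil genes Mcpt8 and Prss34 together. The rule took 679 of 23794 filtered barcodes, 324 of 13251 in the control library and 355 of 10543 in the MYC library. Single-cell RNA-seq of transcript 3′ ends was done on hematopoietic cells of bone marrow, with 1 library per genotype. The control library came from Mx1Cre+/-;Rosa26+/+ marrow. The MYC library came from Mx1Cre+/-;Rosa26LSL-MYC/LSL-MYC marrow, so both carried Mx1Cre. Mx1Cre is a Cre recombinase under an interferon-inducible promoter that acts in blood cells and in other tissues, and LSL-MYC is a MYC transgene at Rosa26 kept silent by a stop cassette until Cre excises it. The study compared marrow cells after MYC overexpression in hematopoietic stem cells. The number of mice, their age and how Cre was induced are not given in the sources used here, and with 1 library per genotype the genotype and the library cannot be told apart.

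Neutrophils store their antimicrobial proteins in granules that are filled in a fixed order as the cell matures. Promyelocytes make the primary, or azurophil, granules with myeloperoxidase and the neutrophil serine proteases, while dividing and under the control of C/EBP factors, PU.1 and Gfi1. Their descendants switch these genes off and make the proteins of the secondary granules, such as lactoferrin and cathelicidin.

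The chosen barcodes held a median of 17666.5 UMIs and 3971.5 genes in the control library and 18043 UMIs and 3517 genes in the MYC library. In all, 6027337 and 6379807 UMIs were summed. Levels are given as CPM, a gene's UMIs per 1000000 of these sums, and differences as the log2 of the MYC over the control CPM with a 95% interval that covers counting error only. No test or p-value can be had from 1 library per genotype. A gene is called higher or lower where its CPM ratio reached 1.5-fold in either direction. The mitochondrial share was a median of 5.19% in control barcodes and 3.07% in the MYC library, against 5.50% and 4.15% in granule-rich barcodes with monocyte genes, 4.34% and 4.08% in B lineage barcodes, and 1.26% and 1.32% in later neutrophil precursors. Ribosomal protein transcripts made up 19.8% and 26.4% of the UMIs. The libraries shared 97 barcode sequences among all deposited barcodes, and none of these was chosen in both.

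The chosen barcodes were 2.45% of filtered barcodes in the control library (exact 95% interval 2.19 to 2.72) and 3.37% in the MYC library (3.03 to 3.73). The shares were 0.922 percentage points apart (0.486 to 1.37), and 1.66 points apart with mitochondrial shares under 5%. Other sets shifted within the same total: B lineage barcodes were 9.16% and 2.67%, later neutrophil precursors 28.6% and 33.1%, and granule-rich barcodes with monocyte genes 2.27% and 2.54%. Shares of 1 total are not independent of each other. The counts on either side of the granule limit were the same in the libraries: 9 barcodes each lay between 1% and 1.1%, and, of those that met the other limits, 15 each between 0.9% and 1%. The highest share outside was 0.996% in control barcodes and 0.993% in the MYC library, and the lowest inside 1.01% and 1.005%. Of 656 and 645 filtered barcodes with 1% or more granule UMIs, the monocyte limit left out 301 and 268. These 301 and 268 had median depths of 25996 and 24100.5 UMIs, above those of the chosen barcodes, and 87 and 72 of them had only 2 or 3 UMIs of the monocyte genes. The basophil limit removed 31 and 22 more.

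Ms4a3, a gene of granulocyte and monocyte progenitors that the rule did not use, stood at 995 CPM in control barcodes and 1253 CPM in the MYC library. That was 9.71 and 9.23 times its level in all other filtered barcodes. With each barcode thinned to 5000 UMIs, which left out 8 control and 18 MYC barcodes, Ms4a3 was detected in 98.7% and 98.2% of the chosen barcodes (99.7% and 98.6% unthinned). In B lineage barcodes, which should lack it, the thinned shares were 2.99% and 4.55% of 703 and 198 barcodes. Thinning left out 511 and 84 B lineage barcodes of lower depth. Median depths before thinning, over all B lineage barcodes, were 5470 and 7165 UMIs. The 10 genes outside the rule with the largest level over the rest in both libraries were Prss57, Nkg7, Vcam1, Ms4a3, Cst7, Gfi1, Gstm1, Rgcc, Tma16 and Srgn. Prss57, a serine protease of the same granules, was 10.8 and 10.9 times its level elsewhere. Srgn, which makes the proteoglycan core that packs granule proteases, was 5.29 and 5.98 times its level elsewhere. Cd34 was low, at 9.95 and 15.7 CPM, and so was Flt3, with 2 and 3 UMIs. These levels describe the cells and are no test, since the members were chosen on transcripts of the same barcodes. Several of these genes were also abundant in granule-rich barcodes with 2 or more UMIs of the monocyte genes, where Ms4a3 stood at 721 and 714 CPM, Prss57 at 210 and 160 CPM and Cst7, an inhibitor of cysteine proteases, at 173 and 156 CPM (178 and 176 CPM in the chosen barcodes).

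Elane makes neutrophil elastase, Prtn3 proteinase 3, Ctsg cathepsin G, and Mpo myeloperoxidase, which turns hydrogen peroxide and chloride into hypochlorous acid. Prtn3 (chromosome 10, 79874476 to 79883174, GRCm38, plus strand) and Elane (79886247 to 79888215, plus strand) are neighbours, and Prss57 (79781474 to 79790961, minus strand) lies on the same chromosome. Mpo lies on chromosome 11 (87793581 to 87804413, plus strand) and Ctsg on chromosome 14 (56099881 to 56102574, minus strand). Their upstream sequences are shown because the 4 genes mark the same cells and yet shifted against each other between the libraries. All 4 genes matched the RefSeq promoter table of build GRCm38.p6. The spans above are those of GENCODE, which take in all transcripts of a gene, and the RefSeq start of Prtn3 lies inside its span. Each window is the longest stretch free of annotated exons within 250 bases before the RefSeq start, in gene direction and counted from the start, with motif matches in capitals. They are Prtn3 (chr10:79879417-79879613, plus, positions -250 to -54), Elane (chr10:79886062-79886246, plus, -250 to -66), Mpo (chr11:87793534-87793580, plus, -250 to -204) and Ctsg (chr14:56102575-56102824, minus, -250 to -1).
Prtn3: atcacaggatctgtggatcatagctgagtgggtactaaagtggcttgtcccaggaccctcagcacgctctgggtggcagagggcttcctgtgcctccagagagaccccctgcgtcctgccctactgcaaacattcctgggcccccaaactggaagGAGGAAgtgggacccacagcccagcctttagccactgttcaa
Elane: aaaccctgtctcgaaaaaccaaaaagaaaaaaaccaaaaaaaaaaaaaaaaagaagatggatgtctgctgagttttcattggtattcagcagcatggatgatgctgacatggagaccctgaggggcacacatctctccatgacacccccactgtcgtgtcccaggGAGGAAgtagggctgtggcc
Mpo: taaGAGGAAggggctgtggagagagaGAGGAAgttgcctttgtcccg
Ctsg: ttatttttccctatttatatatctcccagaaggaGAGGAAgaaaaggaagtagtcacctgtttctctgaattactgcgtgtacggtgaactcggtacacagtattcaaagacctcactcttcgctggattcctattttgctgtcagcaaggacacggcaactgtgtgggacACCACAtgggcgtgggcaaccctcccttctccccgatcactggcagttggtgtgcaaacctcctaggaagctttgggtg
The motifs searched, on both strands, were GAGGAA (PU.1), TTGCNNAA and TTNNGCAA (C/EBP), TGTGGT (RUNX) and CACGTG (the E-box bound by MYC). GAGGAA was in each window, at -95 to -90 in Prtn3, -85 to -80 in Elane, -216 to -211 in Ctsg, and at -247 to -242 and -224 to -219 in Mpo. The same windows of all 32851 promoters held it in 18.6%, 17.6%, 23.3% and 4.51% of cases, in that order of genes. The only other match was ACCACA, the RUNX motif on the opposite strand, at -79 to -74 in Ctsg, which 14% of promoters held in that window. A match describes the letters and not a bound site.

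The 4 genes of the rule added up to almost the same level in both libraries, 33061 CPM in control barcodes and 33114 CPM in the MYC library, but their balance differed. These levels belong to the rule and are a description. In single barcodes Elane ranged from 0.0889% to 2.53% of UMIs around a median of 1.11% in the control, and from 0.0820% to 3.78% around 1.08% in the MYC library. Mpo had a median of 1.06% in the control (0.0479% to 2.75%) and of 0.638% in the MYC library (0.0317% to 4.63%). The Prtn3 median was 0.940% in the control (0.0809% to 2.44%) and 1.14% in the MYC library (0.0951% to 3.004%). Ctsg had medians of 0.190% (0 to 0.896%) and 0.343% (0 to 1.58%). For each gene the ranges of the libraries overlapped over most of their length.

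**Figure D1:**
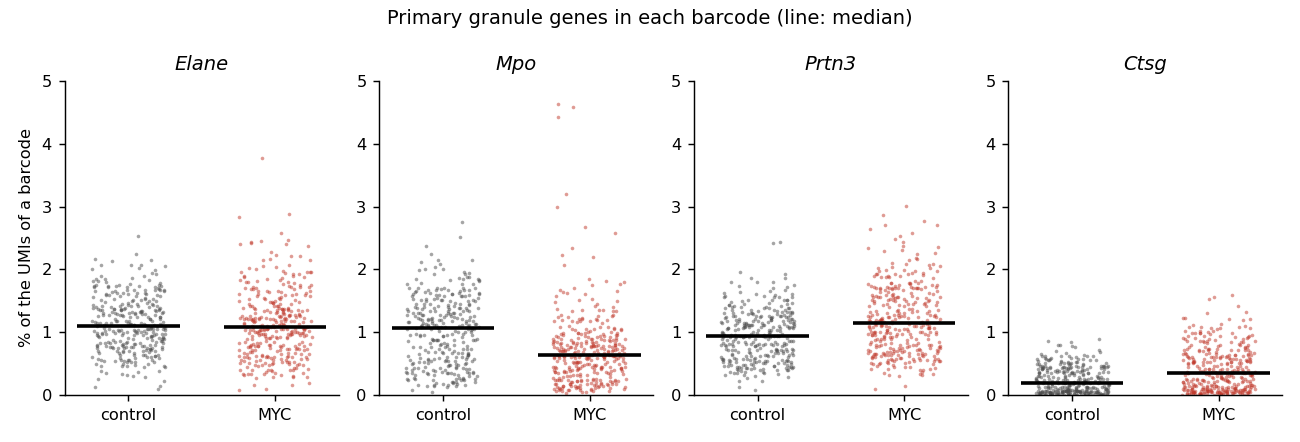
Share of a barcode's UMIs (y axis, %) from each primary granule gene in the 324 control and 355 MYC barcodes (points, spread sideways), with the median as a line. Medians were close for Elane (1.11% and 1.08%), lower in the MYC library for Mpo (1.06% and 0.638%) and higher for Prtn3 (0.940% and 1.14%) and Ctsg (0.190% and 0.343%).

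Summed over barcodes, Mpo fell from 9836 to 6221 CPM (log2 ratio -0.66, interval -0.68 to -0.64) and Ctsg rose from 2501 to 4056 CPM (0.70, 0.67 to 0.73). Prtn3 stood at 9451 and 11724 CPM (0.31, 0.30 to 0.33) and Elane at 11273 and 11114 CPM (-0.02, -0.04 to -0.01), neither past 1.5-fold. A count of 3′ ends takes 1 end per transcript, so UMIs of these genes were also set against each other without a length correction. Elane was the most abundant of the 4 in 53.4% of control and 39.7% of MYC barcodes, Mpo in 34.0% and 10.1%, and Prtn3 in 12.7% and 49.0%. Ctsg led in 0 control and 4 MYC barcodes. Prtn3 had more UMIs than Mpo in 152 of 324 control barcodes (46.9%, 41.4 to 52.5) and in 309 of 355 MYC barcodes (87.0%, 83.1 to 90.4). This tally restates the sums barcode by barcode within 1 library per genotype. With mitochondrial shares under 5%, the log2 ratio was -0.29 for Mpo and 1.37 for Ctsg. On a scale that sets the median gene to no change (below), Mpo stood at -0.37, Prtn3 at 0.60 and Ctsg at 0.98.

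The values by class of total granule transcripts are given as a description, since each class fixes the sum of the 4 genes and a lower share of one goes with higher shares of others. In barcodes with 1 to 2%, 2 to 4% and 4 to 8% granule UMIs, the Mpo ratio was -0.88, -0.63 and -0.65 and the Ctsg ratio 0.86, 0.87 and 0.58. The Prtn3 ratio was 0.45, 0.28 and 0.32 in these classes, and the Elane ratio -0.17, -0.07 and 0.07. Neighbouring sets of barcodes were read in the same way, each again cut on the sum of the 4 genes. Granule-rich barcodes with 2 or more UMIs of the monocyte genes (301 and 268) had Mpo at -0.78, Ctsg at 0.54, Elane at -0.63 and Prtn3 at -0.06. Later neutrophil precursors, chosen by at least 3% UMIs of Ngp, Camp and Ltf and under 1% of the 4 genes (3793 and 3486), had Mpo at -0.74, Ctsg at 0.92, Elane at -0.43 and Prtn3 at 0.44. Mpo was lower in all 3 sets, and Ctsg was higher in the granulocyte progenitors and in the later precursors. The B lineage barcodes held Mpo at 92.8 and 165 CPM and Ctsg at 29.7 and 132 CPM. That set is not pure in the MYC library, where Cd79a, a chain of the B cell receptor, was detected in 68.8% of its barcodes against 98.3% in the control library, so its levels are a reference and not a measure of free RNA.

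The barcodes spread along a gradient from primary to secondary granule transcripts. Ngp, Camp and Ltf, which make neutrophilic granule protein, cathelicidin and lactoferrin, together made up a median of 0.705% of UMIs in control barcodes and 0.656% in the MYC library. They were under 0.1% in 109 control barcodes (33.6%) and 116 MYC barcodes (32.7%), and at 1% or more in 146 (45.1%) and 165 (46.5%). Barcodes under 0.1% had a median granule share of 4.43% in each library, and those at 1% or more had 2.35% and 2.24%. Over barcodes, the granule share and this secondary share had a Spearman rho of -0.65 in the control (n = 324) and -0.63 in the MYC library (n = 355). Both shares have the barcode's UMIs as denominator, and the rule chose the barcodes on the granule share. The rho values are therefore a description and no test.

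**Figure D2:**
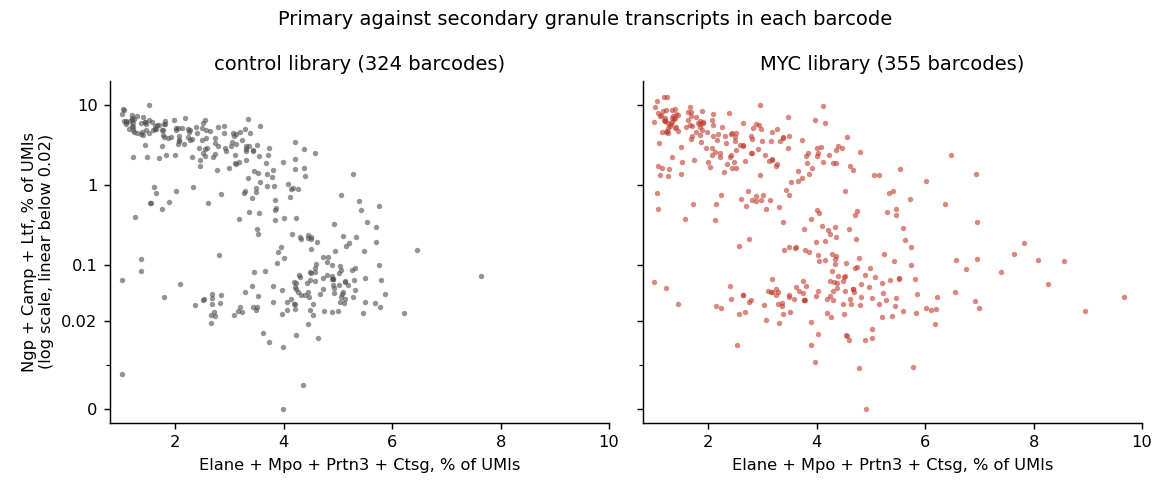
Granule share (x axis, % of UMIs of Elane, Mpo, Prtn3 and Ctsg) against the share of Ngp, Camp and Ltf (y axis, log scale, linear below 0.02%) for each barcode, with the control library on the left and the MYC library on the right. Barcodes with 1% or more secondary granule UMIs (146 and 165) lie mostly to the left of those under 0.1% (109 and 116).

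Across the classes of 1 to 2%, 2 to 4% and 4 to 8% granule UMIs (68, 139 and 117 control barcodes; 77, 141 and 132 MYC barcodes), Camp went from 34685 to 14714 and 2117 CPM in control barcodes and from 40806 to 12927 and 4092 CPM in the MYC library. It stayed above the 315 and 385 CPM of the B lineage barcodes in each of these classes. Fcnb, a lectin of early granulocytes, went from 4098 to 2673 and 1594 CPM in control barcodes and from 1973 to 1082 and 694 CPM in the MYC library. Cebpe, the factor that drives secondary granule genes, went from 595 to 323 CPM and from 678 to 422 CPM between the lowest and the highest of these classes. Kit, the stem cell factor receptor, went from 55.8 to 131 CPM in control barcodes and from 33.3 to 84.5 CPM in the MYC library. Gfi1, a repressor needed for neutrophil fate, went from 79.5 to 195 CPM and from 39.8 to 105 CPM. Ms4a3 went from 655 to 1282 CPM and from 800 to 1579 CPM. Cd34, a surface protein of stem and progenitor cells, did not follow this order: over the 3 classes it stood at 11.8, 14.4 and 2.51 CPM in control barcodes and at 13.03, 27.2 and 1.46 CPM in MYC barcodes, on 3 to 79 UMIs a class. Only the MYC library had barcodes with 8% or more granule UMIs, 5 in number with a median of 5304 UMIs. The mitochondrial share moved along the gradient too: its medians in the 3 classes were 3.56%, 4.66% and 6.24% in control barcodes and 2.19%, 3.21% and 3.78% in the MYC library.

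**Figure D3:**
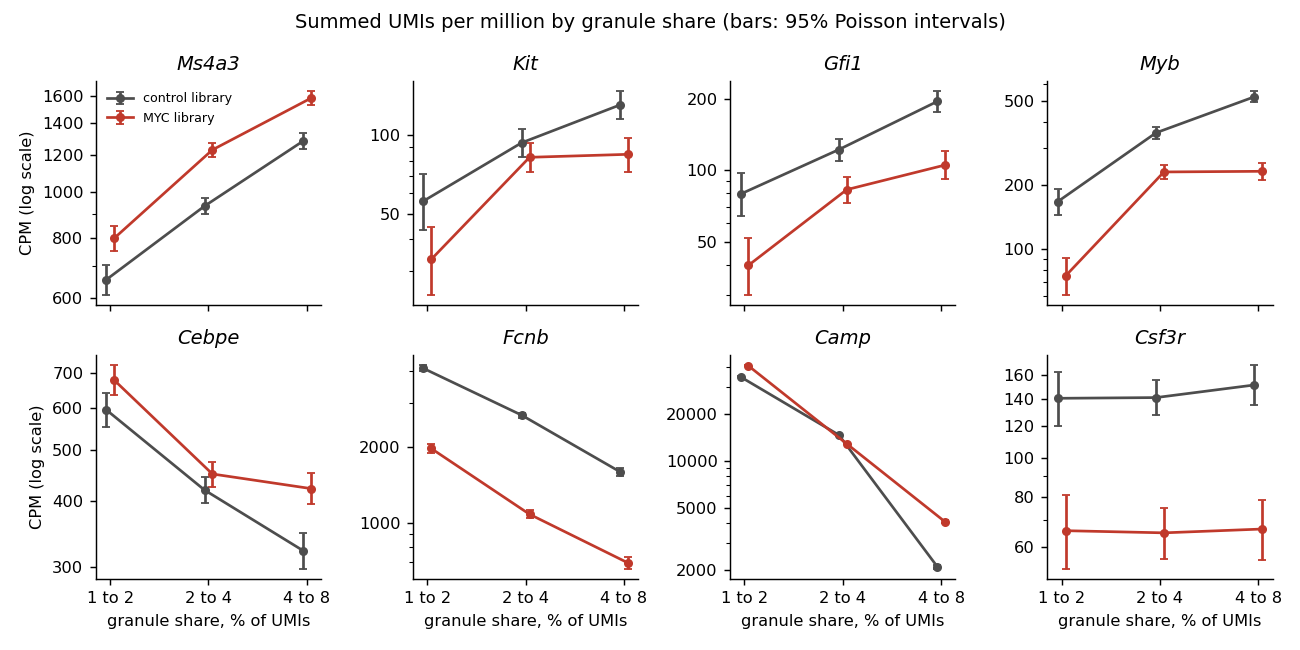
CPM (y axis, log scale) of 8 genes in barcodes grouped by granule share (x axis, % of UMIs), with 95% Poisson intervals; grey is the control and red the MYC library. Ms4a3, Kit, Gfi1 and Myb are lowest at 1 to 2%, Cebpe, Fcnb and Camp are highest there, and Csf3r is near 140 to 152 CPM in control barcodes and 65 to 67 CPM in the MYC library between 1 and 8%.

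Between the libraries, 9050 genes with 50 or more UMIs were compared, of which 492 (5.44%) were higher and 2734 (30.2%) lower in the MYC library by 1.5-fold. The median log2 ratio over these genes was -0.32. With the scale set by the median gene (median-of-ratios scaling, a shift of -0.29), 1389 (15.3%) were higher and 1073 (11.9%) lower, so that lower genes were 43.6% of those past the fold in place of 84.7%. With mitochondrial shares under 5%, 11.2% of 8055 compared genes were higher and 26.4% lower, and 8.72% and 26.1% when also averaged over the classes of granule share. List counts below are read against 5.44% and 30.2%, those with the median gene as the scale against 15.3% and 11.9%, and those under the mitochondrial limit against 11.2% and 26.4%. Each list's median of log2 (CPM + 1) ratios stands beside -0.30 for all compared genes. Neither a list's count nor its median was tested.

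Of the 16 other early granulocyte genes, 0 were higher and 4 lower, with a median of -0.06. Fcnb fell from 2596 to 1145 CPM (-1.18, -1.22 to -1.14) and Hk3, a hexokinase of myeloid cells, from 277 to 145 CPM (-0.93, -1.05 to -0.82). Both passed 1.5-fold under each of the 13 alternatives computed. Gstm1, a glutathione transferase, fell from 567 to 368 CPM (-0.62) but stood at -0.34 with the median gene as the scale. The other lower gene, Prg2, had only 47 and 13 UMIs. Prss57 stood at 302 and 382 CPM, Nkg7 at 734 and 687 CPM, and Srgn at 2018 and 2546 CPM, none past the fold. With the median gene as the scale 4 of the 16 were higher and 3 lower.

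Of the 13 secondary granule genes 3 were higher and 1 lower (median -0.04), but 2 were higher and 3 lower with mitochondrial shares under 5% (median -0.41), and 3 higher and 2 lower at that limit when averaged over the classes of granule share (median -0.17). Lcn2, which makes the iron-scavenging lipocalin 2, rose from 908 to 1440 CPM (0.67, 0.62 to 0.72), Ifitm6 from 68.9 to 129 CPM (0.90), and Anxa1, which makes annexin A1, from 446 to 877 CPM (0.97, 0.91 to 1.04). Mmp8, the neutrophil collagenase, fell from 94.1 to 44.2 CPM (-1.09, -1.30 to -0.88). Camp stood at 14466 and 16039 CPM (0.15), Ngp at 5018 and 5748 CPM (0.20) and Ltf at 397 and 322 CPM (-0.30). Lcn2 stood at 0.34 with mitochondrial shares under 5%, while Anxa1 and Mmp8 passed the fold under all 13 alternatives. Of 11 compared genes of gelatinase granules and mature neutrophils 0 were higher and 5 lower: Cxcr2, Cxcr4, Mmp9, Csf3r and Trem1. With the median gene as the scale 3 were lower.

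Of 7 compared inhibitors of proteases 3 were higher and 0 lower (median 0.52), and 5 higher with the median gene as the scale. Serpinb1a, the cytosolic inhibitor of elastase, cathepsin G and proteinase 3, stood at 890 and 1277 CPM (0.52, 0.47 to 0.57), short of 1.5-fold. Serpinb6a rose from 8.79 to 19.6 CPM (1.16, 0.68 to 1.65). The stefins, inhibitors of cysteine cathepsins, were scarce: Stfa1 had 14 and 109 UMIs (2.88, 2.07 to 3.8) and Stfa2l1 31 and 91 UMIs (1.47, 0.87 to 2.11). Both are among the 3 higher members and passed the UMI limit for compared genes through the MYC library, where they were high. The list's count and median include them, so the count depends in part on that limit. Stefin genes are near-identical copies, so their UMIs cannot be assigned with certainty to 1 member. Slpi stood at 120 and 171 CPM (0.50) and Cst3 at 476 and 495 CPM (0.06).

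Of 15 compared genes on a list of transcription factors of granulocyte and monocyte fate 9 were lower and 0 higher, with a median of -0.74. Myb, which maintains progenitors, fell from 374 to 197 CPM (-0.92, -1.02 to -0.82). Gfi1 fell from 138 to 81.0 CPM (-0.77, -0.93 to -0.61) and Cebpa, needed to enter the granulocyte line, from 76.2 to 47.7 CPM (-0.68, -0.89 to -0.46). Runx1 (-0.76), Etv6 (-0.81), Ikzf1 (-0.81) and Zeb2 (-0.91) were lower too. So was Per3 (-0.76), a clock gene on the list rather than a fate factor. Irf8, which directs cells to the monocyte line, had 97 and 26 UMIs (-1.98, -2.67 to -1.34). Its log2 ratio was -0.39 where the monocyte genes were limited to under 0.02% of UMIs in place of 1 UMI. Spi1, which makes PU.1, stood at 334 and 347 CPM (0.05), Cebpe at 422 and 489 CPM (0.21) and Cebpb at 190 and 283 CPM (0.57). In the classes of granule share, Gfi1 was at -1.0, -0.56 and -0.89 and Myb at -1.17, -0.62 and -1.17. With the median gene as the scale 3 of the 15 were lower and 2 higher, and with mitochondrial shares under 5% 5 were lower and 1 higher. Myb then stood at -0.04 and Gfi1 at -0.60. Averaged over the classes of granule share at the same limit, 8 were lower and 1 higher (median -0.66), with Myb at -0.26 and Gfi1 at -0.78.

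Among receptors, Csf3r, the receptor of granulocyte colony-stimulating factor, fell from 144 to 65.7 CPM (-1.14, -1.31 to -0.97). It passed 1.5-fold under all 13 alternatives and stood at -1.12 in the granule-rich barcodes with monocyte genes and -0.94 in later precursors. Il6ra (112 and 78 UMIs, -0.60) and Ifnar1 (108 and 70 UMIs, -0.71) were lower too, so that 3 of 8 compared receptors were lower and 0 higher (1 lower with the median gene as the scale). Csf2ra (202 and 176 CPM) and Csf2rb (65.2 and 56.6 CPM), chains of the receptor for granulocyte-macrophage colony-stimulating factor, did not pass the fold. Of 9 compared stem and progenitor genes 3 were higher and 4 lower, and 4 higher and 1 lower with the median gene as the scale. Cdk6 fell from 311 to 191 CPM (-0.70) and Ifitm1 rose from 12.6 to 48.1 CPM (1.93, 1.57 to 2.31). The summed level of Cd34 rose from 9.95 to 15.7 CPM (0.65, 0.18 to 1.14), and its ratio stood at 2.81 with mitochondrial shares under 5%. The share of barcodes with Cd34 did not rise: thinned, it was 4.43% in control and 3.86% in MYC barcodes, and unthinned 9.57% and 7.89%. Kit stood at 98.6 and 72.3 CPM (-0.45).

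The NADPH oxidase supplies the superoxide from which Mpo substrate is made. Of its membrane subunits, Cyba rose from 1084 to 1762 CPM (0.70, 0.66 to 0.74) and Cybb stood at 516 and 434 CPM (-0.25). Of the cytosolic subunits, Ncf1 fell from 420 to 269 CPM (-0.64) and Ncf4 stood at 250 and 337 CPM (0.43). Cyba stood at 0.38 with mitochondrial shares under 5%, and Ncf1 at -0.36 with the median gene as the scale, on which 2 of the 6 subunits were higher and 0 lower. With mitochondrial shares under 5% the count was 0 higher and 2 lower. Myeloperoxidase carries heme, and of the 8 enzymes of heme synthesis 3 were lower and 0 higher, and 1 was lower with the median gene as the scale. Alas1, the enzyme of the first step outside the red cell line, stood at 478 and 477 CPM. Fech, which inserts the iron, fell from 32.7 to 15.7 CPM (-1.06, -1.42 to -0.71), Cpox from 29.0 to 17.4 CPM (-0.74) and Uros had 48 and 30 UMIs (-0.76). Haemoglobin UMIs went the same way, with 16219 in control barcodes and 4429 in the MYC library, of which 5 barcodes held 73.4% and 54.3%. Without barcodes with 1% or more haemoglobin or immunoglobulin UMIs (11 control and 1 MYC), Fech stood at -0.62 and Cpox at -0.47, and the part of other cells in this result was not tested further.

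Secretory cells fold their cargo in the endoplasmic reticulum. Of 18 genes of folding and the unfolded protein response 8 were lower and 0 higher (median -0.44). Over all compared genes 30.2% were lower and 5.44% higher. Hspa5, the chaperone BiP, fell from 705 to 371 CPM (-0.93, -1.0 to -0.85). Hsp90b1 fell from 803 to 416 CPM (-0.95), Calr, which makes calreticulin, from 1006 to 611 CPM (-0.72, -0.78 to -0.66), Hyou1 from 76.8 to 30.6 CPM (-1.33) and Dnajb9 from 26.7 to 12.7 CPM (-1.07). In contrast, Ppib stood at 267 and 390 CPM (0.55) and Sdf2l1 at 118 and 170 CPM (0.52). Hspa5 and Calr increased with the granule share, from 262 to 992 CPM and from 355 to 1380 CPM in the control. In the neighbouring sets with monocyte genes and of later precursors, Hspa5 was at -0.49 and -0.17 and Calr at -0.26 and -0.19; the differences between sets were not tested. With the median gene as the scale 5 of the 18 were lower and 2 higher. With mitochondrial shares under 5%, 4 were lower and 2 higher (median -0.11), where 26.4% and 11.2% of all compared genes were. Calr then stood at -0.01 and Hspa5 at -0.46. When also averaged over the classes of granule share, 6 were lower and 1 higher (median -0.25), with Calr at -0.28 and Hspa5 at -0.67. Over all compared genes the shares were then 26.1% and 8.72%. Genes of the ATF4 response to amino acid shortage went the other way, with 5 of 7 compared genes higher and 0 lower (median 0.60), and 6 higher with the median gene as the scale. Asns, which makes asparagine, rose from 26.0 to 67.6 CPM (1.37, 1.11 to 1.65), Psat1 from 20.2 to 36.2 CPM (0.84) and Phgdh from 96.2 to 157 CPM (0.71), the last 2 being enzymes of serine synthesis. These 3 passed the fold under all 13 alternatives.

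The MYC feature of the deposited matrices, whose sequence is not given in the sources used here, had 0 UMIs in the control library's granulocyte progenitors, with an exact upper bound of 0.612 CPM. In the MYC library it had 4 UMIs in 3 of 355 barcodes, or 0.627 CPM (0.171 to 1.61), against 3.17 CPM (2.82 to 3.54) in all other barcodes of that library. Mouse Myc fell from 61.9 CPM (55.8 to 68.5) to 37.6 CPM (33.0 to 42.7), a log2 ratio of -0.72 (-0.96 to -0.48). It stood at -0.75 in the later precursors and at 0.15 in granule-rich barcodes with monocyte genes, and at 0.11 here where mitochondrial shares were under 5%. Of 37 compared genes known to be induced by MYC 5 were higher and 0 lower, with a median of 0.04. Mthfd2, a mitochondrial folate enzyme, rose from 19.6 to 61.1 CPM (1.64, 1.34 to 1.95), Tfrc, the transferrin receptor, from 71.7 to 136 CPM (0.92), and Eif5a from 606 to 1060 CPM (0.81). Ncl, which makes nucleolin, stood at 808 and 726 CPM (-0.15) and Npm1 at 786 and 1082 CPM (0.46). This count depended on the mitochondrial limit: with shares under 5% in 149 control and 279 MYC barcodes, 23 of the 37 were higher and 0 lower, with a median of 0.72, where 11.2% of all compared genes were higher. That limit also moved the control library along the gradient, to a median secondary share of 3.10% against 1.37% in the MYC library. Averaged over the 3 classes of granule share at the same limit, 17 of the 37 were higher and 0 lower (median 0.55), where 8.72% of all compared genes were higher. With the scale set by the median gene and the original limit, 12 were higher, where 15.3% of all compared genes were.

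Cytosolic ribosomal protein genes were higher in 27 of 80 compared cases and lower in 0, with a median of 0.45. With the median gene as the scale 50 were higher. Rplp0 rose from 2336 to 5056 CPM (1.11, 1.09 to 1.14) and Rps2 from 2291 to 4774 CPM (1.06), whereas Rpl37a stood at 4837 and 3806 CPM (-0.35). Rplp0 was at 1.13, 1.17 and 1.05 in the 3 classes of granule share. Of 21 compared interferon response genes 13 were lower and 1 higher (median -0.75), and 10 lower and 1 higher with the median gene as the scale. The median was -0.40 with a pseudocount of 10 CPM, where that of all compared genes was -0.20. Some members are scarce and passed the limit of 50 UMIs through the control library. Rsad2, an antiviral enzyme, had 63 and 8 UMIs (-3.06, -4.33 to -1.99), and Ifi27l2a had 147 and 31 UMIs (-2.33). The single higher member was Ifitm3, a membrane protein that blocks virus entry, which rose from 66.7 to 154 CPM (1.21, 1.04 to 1.38). In the granule-rich barcodes with monocyte genes 1 of these 21 was higher and 16 lower, where 5.5% and 13% of 9771 compared genes were. In later precursors 1 was higher and 14 lower, where 6.11% and 20.4% of 11167 compared genes were.

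**Figure D4:**
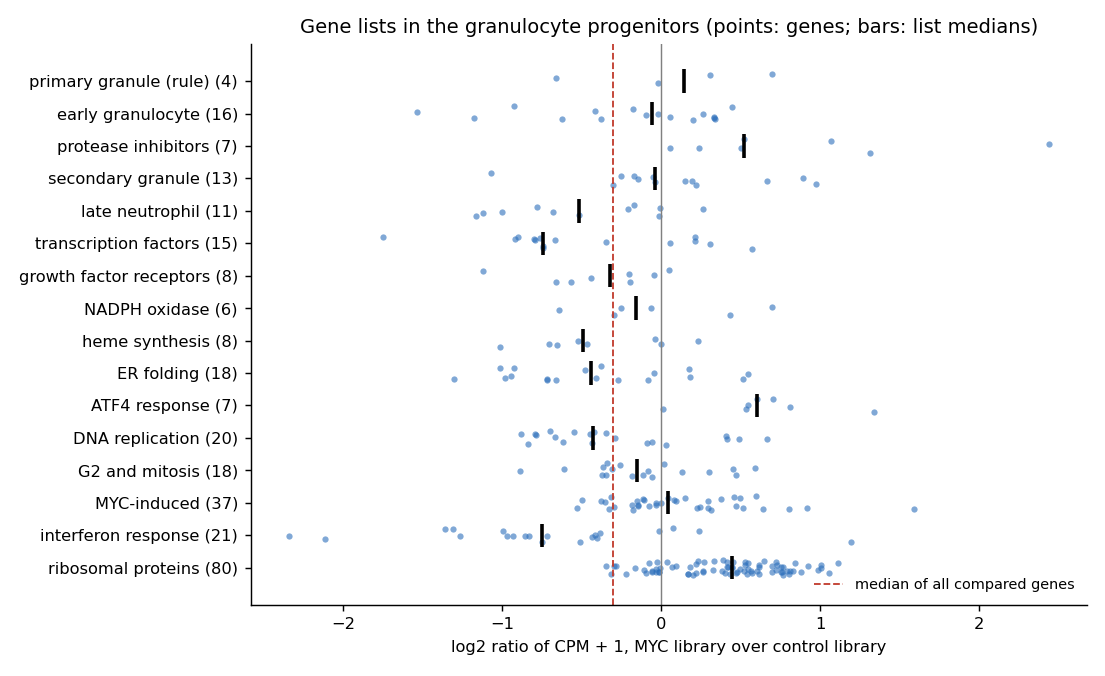
Log2 ratio of CPM + 1 in the MYC over the control library (x axis) for each compared gene (points) of 16 lists, whose number of genes is in brackets; black bars are list medians, and the red dashed line is the median of all compared genes, -0.30. Ribosomal proteins (0.45), protease inhibitors (0.52) and the ATF4 response (0.60) have the highest medians, and the interferon response (-0.75) and transcription factors (-0.74) the lowest at this pseudocount; with 10 CPM these are -0.40 and -0.64.

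With barcodes thinned to 5000 UMIs, 94.3% of control barcodes (91.1 to 96.6) and 92.0% of MYC barcodes (88.6 to 94.7) held 2 or more UMIs of 18 G2 and mitosis genes. Unthinned shares were 99.1% and 98.9%. Nearly all barcodes passed this mark in both libraries, so the share leaves little room for a difference and none is read from it (-2.32 percentage points, -6.44 to 1.82). The later precursors had 64.1% and 62.0%, and B lineage barcodes, some of which divide, 58.0% and 39.9%. These shares leave out 674 and 560 later precursors and 511 and 84 B lineage barcodes with under 5000 UMIs. Among the genes themselves Mki67 fell from 655 to 354 CPM (-0.89, -0.96 to -0.81) and Birc5 rose from 145 to 219 CPM (0.59), with 2 of 18 lower and 1 higher (1 lower and 4 higher with the median gene as the scale, and 4 lower and 0 higher with mitochondrial shares under 5%, where Birc5 stood at 0.32). In the 3 classes of granule share Mki67 was at -0.71, -1.01 and -0.94. Of 20 DNA replication genes 7 were lower and 1 higher, near the 30.2% and 5.44% of all compared genes. With the median gene as the scale 1 was lower and 4 higher, where 11.9% and 15.3% of all compared genes were. Cdc6, which loads the replicative helicase, fell from 41.8 to 22.3 CPM (-0.91), while Gins2, a part of that helicase, rose from 24.9 to 40.1 CPM (0.69).

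The series title names alarmins. S100a8 and S100a9, the subunits of calprotectin, made up the largest share of the alarmin list: S100a8 stood at 44869 and 33539 CPM (-0.42, -0.43 to -0.41) and S100a9 at 45434 and 54050 CPM (0.25, 0.24 to 0.26). Neither passed 1.5-fold. The level of S100a8 decreased along the gradient from 81197 to 20042 CPM in control barcodes and from 65419 to 18205 CPM in the MYC library between the classes of 1 to 2% and 4 to 8% granule UMIs. In B lineage barcodes S100a8 stood at 2790 and 3477 CPM. Of the 11 alarmin genes S100a4 passed the fold, with 26 and 60 UMIs (1.12, 0.44 to 1.85), and 3 were higher with the median gene as the scale.

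Haemoglobin, immunoglobulin, mitochondrial and ribosomal protein genes and the 4 genes of the rule were left out of a ranking of genes whose CPM averaged 50 or more over the libraries. In it, those that rose most were Klf2, Rbm3, Cirbp, Ifitm2, Eif4ebp1, Ubb, Ifitm3, Fcer1g, Lgals1 and Id1. Rbm3 and Cirbp, a pair of cold-inducible RNA-binding proteins, went from 354 to 1037 CPM (1.55, 1.48 to 1.62) and from 32.7 to 82.4 CPM (1.33, 1.1 to 1.58). Klf2, a quiescence factor of lymphocytes and endothelium, went from 25.1 to 80.3 CPM (1.68, 1.42 to 1.95), and Eif4ebp1, a brake on cap-dependent translation, from 56.9 to 140 CPM (1.30). Fcer1g, the signalling chain of Fc receptors, rose from 243 to 543 CPM (1.16, 1.07 to 1.25). In B lineage barcodes the log2 ratio was 0.19 for Klf2, 1.08 for Rbm3, 2.05 for Eif4ebp1 and 3.12 for Fcer1g (108 and 943 CPM). Those that fell most in this ranking were Siglecg, Hdc, Hyou1, Uggt1, Phkb, Aff1, Chd8, Trip11, Cxcr4 and Adpgk. Siglecg, an inhibitory lectin receptor, fell from 93.1 to 22.6 CPM (-2.04, -2.32 to -1.78), and Hdc, which makes histamine, from 161 to 56.1 CPM (-1.52, -1.70 to -1.34). Uggt1, which checks the folding of glycoproteins, fell from 119 to 50.2 CPM (-1.24). In B lineage barcodes Siglecg stood at -1.90, Hdc at -0.55 and Uggt1 at -0.69.

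**Figure D5:**
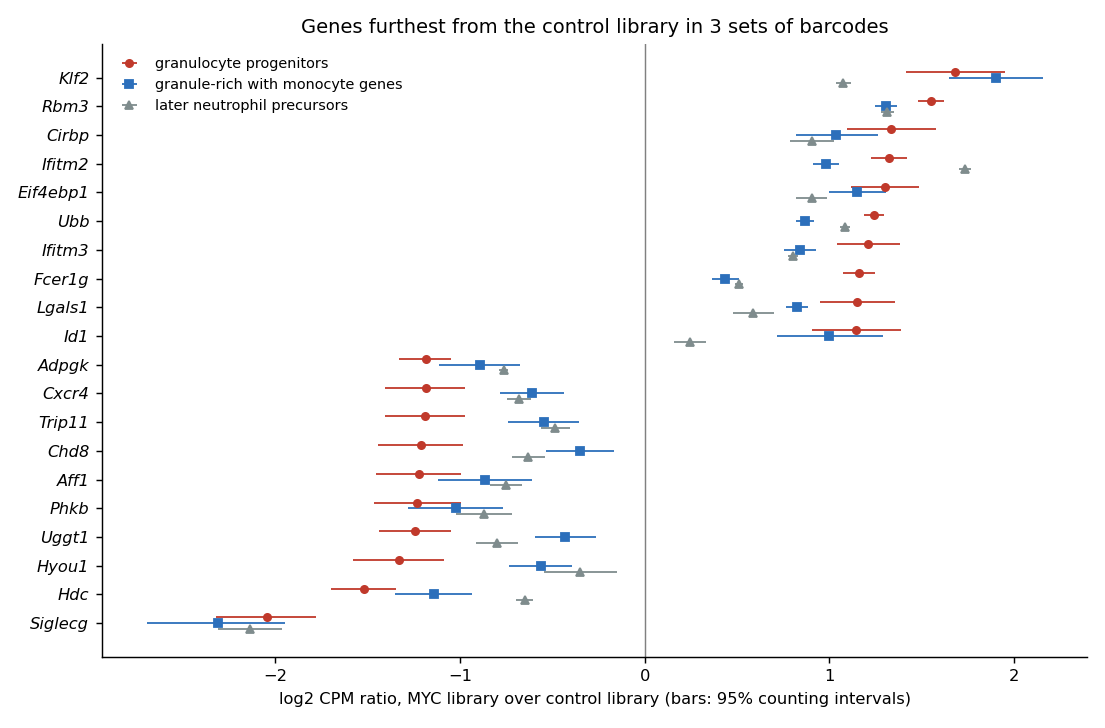
Log2 CPM ratios of the MYC over the control library (x axis) with 95% counting intervals for the 10 genes that rose and the 10 that fell most in the granulocyte progenitors (red circles), beside granule-rich barcodes with monocyte genes (blue squares) and later neutrophil precursors (grey triangles). All 20 genes have the same sign in the 3 sets; Rbm3, for example, lies at 1.55, 1.31 and 1.31.

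The 20 genes had the same sign in the granule-rich barcodes with monocyte genes and in the later precursors. Fcer1g stood at 0.44 and 0.51 in these sets, Hyou1 at -0.56 and -0.35, Uggt1 at -0.43 and -0.80, and Id1 at 1.0 and 0.25. Siglecg stood at -2.31 and -2.13 and Rbm3 at 1.31 and 1.31. The genes were chosen for their extreme values in the granulocyte progenitors, and the differences between the sets were not tested.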

How the data were processed

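The authors deposited raw UMI counts, whole numbers for every gene in every barcode. Per the file headers, Cell Ranger 6.0.0 wrote them. Per the labels' protocols, the libraries used the Chromium 3′ chemistry. The submitters' processing notes name Cell Ranger 6.0, Seurat, GRCm38 and mm10. How barcodes were called as cells is not given in the sources used here. Of 32286 features, 32158 (99.6%) matched GENCODE M21 (GRCm38) by gene identifier.

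Counts were summed over the chosen barcodes of each library and divided by their total (CPM). Intervals are exact Poisson for levels, exact conditional binomial for ratios, exact Clopper-Pearson for shares and Newcombe for differences of shares, at 95%; they cover counting error only. Genes with 50 or more UMIs over both libraries were compared, list medians used a pseudocount of 1 CPM, and barcodes were thinned to 5000 UMIs for shares of barcodes. B lineage barcodes had 3 or more UMIs of Cd79a and Cd79b and under 1% of the 4 granule genes, of haemoglobin and of Ngp, Camp and Ltf. The 4 genes of the rule, the members and the lists were chosen with earlier results of these data known. Named genes were the 10 highest and 10 lowest log2 ratios at a mean of 50 CPM or more with intervals excluding no change (haemoglobin, immunoglobulin, T cell receptor, Xist, Tsix, Y-linked, mitochondrial, ribosomal, Gm and Rik genes and the rule left out), the members of the granulocyte lists, the largest and smallest members of other lists, Myc, the MYC feature, and the 10 genes furthest above the rest at 100 CPM or more. Other members of those lists printed beside them (Psat1, Phgdh, Npm1, Ncl, Tfrc, Eif5a, Ifi27l2a, S100a8, S100a9, Hspa5, Hsp90b1, Calr, Dnajb9, Sdf2l1, Rps2, Cxcr2, Cxcr4, Mmp9, Trem1, Jund, Egr1 and Trib3) and the granule classes were picked after their values were seen. Doublets were kept; the alternatives without likely doublets, and the others, are given in the closing section. The ratio code was tested on simulated data. Python 3.11.15 and numpy 2.4.6 were used.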

Additional observations from a re-analysis of the deposited data

Results flagged for a closer look

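Prg2, the major basic protein of eosinophils and a gene of the early granulocyte list, went in opposite directions in neighbouring sets of barcodes. In the granulocyte progenitors its log2 ratio was -1.94 on 47 and 13 UMIs, and in the granule-rich barcodes with monocyte genes it was 4.75 on 89 and 2016 UMIs. In the latter, 15 of 268 MYC barcodes held Prg2, and 5 of them held 99.4% of its UMIs. In the progenitors 5 barcodes held 74.5% of the control and 92.3% of the MYC UMIs. The set with monocyte genes had no basophil limit, and its basophil and mast cell markers summed to 339 CPM in control and 1178 CPM in MYC barcodes, with 6 of 7 compared genes higher. The eosinophil genes Prg3 (42 and 175 UMIs) and Epx (19 and 151 UMIs) moved the same way there. Their part in the result was not tested. The difference between the sets was not tested.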

How the results depend on the processing

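The share of barcodes moved from 0.922 to 1.66 percentage points with mitochondrial shares under 5%. Under that limit 899 genes were higher in place of 492, and under median-of-ratios scaling 1389 were higher and 1073 lower in place of 492 and 2734. With 10 or more UMIs 827 were higher, over 11286 genes compared, and with 200 or more 1526 were lower, over 5874 genes; these limits change how many genes are compared. All other alternatives computed left these counts within 1.5 times, and the mitosis share within its interval. Of 288 genes followed, 109 were past 1.5-fold, of which 105 kept their sign and 55 stayed past the fold under all 13 alternatives. With mitochondrial shares under 5%, Myc turned to 0.11, Sox4 to 0.19 and Adgrg1 to 0.023, and Prg2 turned to 0.33 with granule shares of at least 0.5%. The cause was not tested.

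Removing called doublets was not run as planned: Scrublet's automatic threshold called 0 of 10543 MYC barcodes and 670 of 13251 control barcodes (5.06%). Removing the 5% highest scores in each library, the haemoglobin and immunoglobulin limit, and the mitochondrial limit within classes of granule share were added after the data were seen. No paired analysis was possible because each genotype had 1 library. Leaving out a replicate was not possible for the same reason. Depth limits genes of few UMIs, such as the stefins, Irf8 and the MYC feature.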

Other observations

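Among gene groups outside the comparisons above, 3 of 13 compared immediate early genes were higher and 0 lower: Klf2, Jund (55.1 to 107 CPM, 0.96) and Egr1 (18 and 38 UMIs, 1.0). With the median gene as the scale 6 were higher. Of 25 nuclear genes of the respiratory chain Atp5g1 was higher and 0 were lower, with a list median of 0.10, and 6 were higher with the median gene as the scale. In the network of MYC partners, Mga (-0.64), Mnt (-0.71), Mxd4 (-0.59) and Myc were lower of 9 compared genes, and Max stood at 48.3 and 50.8 CPM. None of these 4 was past the fold with mitochondrial shares under 5%. With the median gene as the scale 1 of the 9 was higher and 0 were lower.

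Transcripts of other lineages were uneven. Igkc, Ighm and Jchain together had 23363 UMIs in the control granulocyte progenitors, 88.7% of them in 5 barcodes, and 1276 in the MYC library. C1qa, C1qb and C1qc had 5 and 47 UMIs, the latter spread over 37 barcodes. Markers of T and NK cells summed to 74 and 10 UMIs, and of eosinophils to 28 and 24. Their part in the results was not tested beyond leaving out the barcodes named above. Stfa2 had 0 UMIs in control barcodes and 32 in MYC barcodes, and Trib3, an ATF4 target, 0 and 23.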
